A study of Mus musculus with 4 samples.

Results

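The genes described here encode the kinases that drive RNA polymerase II from initiation into elongation, with their cyclins and the RNA-bound inhibitor of the main one. They are Cdk9, Ccnt1, Ccnt2, Hexim1, Larp7, Cdk7, Ccnh, Mnat1, Cdk12 and Ccnk, a list of 10 genes named by symbol and found on the array as 14 probes with exactly that symbol, out of 18478 genes tested and 26423 probes. The rule uses symbols only, but the list was drawn up with earlier results of these data known. The samples were MA-10 cells, an established mouse Leydig tumor line used as a model of steroid-producing testis cells. Total RNA was taken from cells given 100 μM cordycepin (3'-deoxyadenosine, an adenosine analogue that can end a growing RNA chain) or vehicle for 3 h, and 2 one-colour arrays were hybridised for each group. All 4 arrays came from the same line, and no other genotype or agent was used. The vehicle is PBS in the sample labels and DMSO in the study's methods, and 1 label field gives another concentration for cordycepin. Whether the duplicates were grown as separate cultures is not stated, and p-values therefore rest on the spread between 2 arrays of a group, which may be technical. In the main limma fit that spread was pooled over all probes, so a gene's own spread did not set its p-value.

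P-TEFb, the positive transcription elongation factor, is the kinase CDK9 bound to cyclin T1 or cyclin T2. It phosphorylates the C-terminal domain of RNA polymerase II and the pausing factors that hold the polymerase near the promoter, which lets elongation begin. Much of the cell's P-TEFb is held inactive in a particle built on the small nuclear RNA 7SK, in which HEXIM1 inhibits the kinase and LARP7 binds and stabilises the RNA. CDK7, cyclin H and MAT1 form the CDK-activating kinase of the general factor TFIIH, which acts on the polymerase at initiation and also activates other cyclin-dependent kinases. CDK12 works with cyclin K later in elongation and in human cells is known for keeping long DNA repair genes expressed.

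In cordycepin-treated cells the mRNA signals of both T-type cyclins, of Hexim1 and of Cdk12 were lower than in control cells, by 5.02-fold for Ccnt1, 3.50-fold for Ccnt2, 3.08-fold for Cdk12 and 2.75-fold for Hexim1. No member was called higher, although the Cdk9 signal was 2-fold higher with a limma adjusted p of 0.086. Larp7, Cdk7, Ccnh, Mnat1 and Ccnk did not pass the test on their brightest probes. Thus 4 of 10 members were called lower at an adjusted p under 0.05, against 14.6% of all 18478 genes, and 0 were called higher, against 0.942%. Before adjustment limma put 4 members lower and 1 higher at p under 0.05, and the methods' t-test gave 3 lower and 0 higher before and 0 in either direction after adjustment. Without cordycepin array 1 or array 2 the calls of Hexim1 and Cdk12 were lost, and fewer of all genes were called lower too. Without control array 1 Cdk9 was called higher, but more of all genes were too, and their median log2 ratio rose from -0.13 to 0.11. All 10 members were detected, and among the 11283 genes that 1 group or both detected on each of its arrays (detected genes below), the shares called were 22.1% lower and 0.505% higher. Whether 4 of 10 exceeds such shares was not tested. Bulk RNA cannot tell fewer expressing cells from less RNA per cell, and the labels, which name both a fluorescent dye and a radioactive label, say that labelling was primed with oligo-dT, so poly(A) tail loss and RNA loss cannot be told apart.

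Values below are normalized intensities, which the authors made by multiplying each array's raw intensities by 1 constant. A log2 ratio is the mean log2 intensity of the cordycepin arrays minus that of the control arrays, and a gene with several probes is represented by its brightest. The limma fit gave every probe the same standard error of 0.407, so a log2 ratio had to reach 1.10 in size to pass. Control array 1 was brighter than the other 3, with a median log2 intensity of 5.24 against 4.67 to 4.78. When every array was centred at its median, the median log2 ratio of all probes moved from -0.10 to 0.24, and the share of calls moved to 19.8% of genes lower and 19.9% higher. Of the detected genes, 30% were then lower and 20% higher. Each member is therefore given on both scales. The Leydig markers Star, Cyp17a1, Hsd3b1, Lhcgr and Nr5a1, all 5 of the 8 listed that could be found on the array, were detected. Of the markers of other testis cells, 2 of 5 Sertoli genes on the array (Sox9 and Dhh), 1 of 6 germ cell genes (Ddx4), 3 of 3 macrophage genes and 0 of 2 peritubular genes were detected. Their summed signals were 536 to 846, 43.6 to 61.8, 150 to 198 and 7.10 to 9.16 across arrays, against 13300 to 22740 for the Leydig genes, and their part in the results was not tested.

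The promoters of the 3 P-TEFb regulators that fell, Ccnt1, Ccnt2 and Hexim1, and of the kinase gene that did not, Cdk9, are printed to show what stands upstream of genes of 1 complex whose signals moved apart. Each window runs from 250 bases before to 50 bases after the start in RefSeq's annotation of GRCm38.p6, on the gene's own strand. Capitals mark the letters CCAAT (or ATTGG on the other strand), the core bound by NF-Y, and GGGCGG (or CCGCCC), the core bound by Sp1-type factors. The windows are chr15:98567687-98567986 on the minus strand for Ccnt1, chr1:127773914-127774213 on the plus strand for Ccnt2, chr11:103116075-103116374 on the plus strand for Hexim1 and chr2:32712735-32713034 on the minus strand for Cdk9.
Ccnt1: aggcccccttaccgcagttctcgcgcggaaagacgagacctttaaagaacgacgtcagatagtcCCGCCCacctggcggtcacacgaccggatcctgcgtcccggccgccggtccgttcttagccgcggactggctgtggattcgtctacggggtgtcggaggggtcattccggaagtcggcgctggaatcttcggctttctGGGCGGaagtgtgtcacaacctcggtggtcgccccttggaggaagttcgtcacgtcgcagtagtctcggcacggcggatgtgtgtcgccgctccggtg
Ccnt2: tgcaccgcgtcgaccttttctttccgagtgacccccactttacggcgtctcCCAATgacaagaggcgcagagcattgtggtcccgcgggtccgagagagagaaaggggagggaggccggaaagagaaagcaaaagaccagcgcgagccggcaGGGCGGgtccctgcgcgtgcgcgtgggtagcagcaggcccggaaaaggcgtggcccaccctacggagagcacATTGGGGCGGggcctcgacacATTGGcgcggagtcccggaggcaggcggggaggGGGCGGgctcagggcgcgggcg
Hexim1: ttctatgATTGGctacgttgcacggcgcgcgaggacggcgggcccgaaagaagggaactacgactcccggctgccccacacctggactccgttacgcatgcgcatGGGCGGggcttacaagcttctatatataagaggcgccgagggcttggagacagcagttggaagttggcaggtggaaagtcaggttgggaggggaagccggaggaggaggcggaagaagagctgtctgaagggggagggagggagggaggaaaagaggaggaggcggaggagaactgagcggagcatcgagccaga
Cdk9: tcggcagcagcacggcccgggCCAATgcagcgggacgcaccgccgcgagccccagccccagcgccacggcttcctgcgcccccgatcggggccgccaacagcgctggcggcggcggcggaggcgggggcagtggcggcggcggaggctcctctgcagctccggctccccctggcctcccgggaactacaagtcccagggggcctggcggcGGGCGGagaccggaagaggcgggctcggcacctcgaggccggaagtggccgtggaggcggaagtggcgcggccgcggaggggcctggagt

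Ccnt2 held CCAAT at 3 places and GGGCGG at 3, with 1 copy of each sharing a base. Hexim1 and Cdk9 held 1 of each, and Ccnt1 held no CCAAT and 2 GGGCGG. These matches describe the letters and show no binding. CCAAT on either strand was found in 37.4% of 32851 mouse promoter windows of this length and GGGCGG in 35.7%. The letters TATAAA, present in 13.6% of windows on either strand, were in 0 of the 9 member promoters with a sequence (Ccnh had none). The 9 windows ranged from 45.0% to 78.3% GC, against a median of 52.7% over all windows, and held 12 to 39 CpG dinucleotides, against a median of 7. The highest GC share was that of Cdk9 and the lowest that of Mnat1, which also held the fewest CpG. The Mnat1 window, chr12:73123467-73123766, lay inside the gene span given below and not at its first base. The windows of Cdk12 and Ccnk lay inside their spans as well.

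Within P-TEFb, the kinase and its cyclins moved apart. The Ccnt1 gene (chr15:98538690-98567736) encodes cyclin T1, the partner in most cellular P-TEFb. Its probe read 180 and 129 on the control arrays and 28.9 and 31.8 on the cordycepin arrays. The groups lay far apart, at 154 ± 36.1 and 30.4 ± 2.07 (mean ± SD, n = 2 each), and both cordycepin values stood near the detection limit of their arrays, 24.4 and 20.9. The log2 ratio was -2.33 (95% interval -3.13 to -1.53, adjusted p = 2.83e-07 by limma), lower than all but 3.74% of probes. Centring left -1.99 (adjusted p = 0.00156).

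Cyclin T2, the alternative partner of CDK9, showed the same direction. The Ccnt2 probe (gene at chr1:127774164-127804837) read 370 and 250 in control cells and 85.6 and 88.2 after cordycepin. Those groups, 310 ± 84.4 and 86.9 ± 1.86 (SD, n = 2), did not overlap, and the treated pair sat much closer together than the control pair. Its log2 ratio was -1.81 (95% interval -2.61 to -1.01, limma adjusted p = 0.000135), and -1.47 with centred arrays (adjusted p = 0.00248). Under all 12 alternative settings Ccnt1 stayed between -2.57 and -1.72 and Ccnt2 between -2.09 and -0.99, and both calls were lost only with the methods' t-test (adjusted p = 0.32 and 0.323).

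Cdk9 (chr2:32705782-32712784), the catalytic subunit that both cyclins activate, read 103 and 62.1 in control cells and 152 and 168 in cordycepin cells. Both treated arrays were above both controls, at 160 ± 11.3 against 82.6 ± 28.9 (SD, n = 2). On the authors' scale this was the sole member whose groups did not overlap upward (Larp7 joined it on raw intensities), a pattern seen in 8.64% of all genes and 6.93% of detected ones. Its log2 ratio of 1.0 (95% interval 0.20 to 1.80) exceeded that of 98.5% of probes but missed the threshold, at an unadjusted p of 0.01407 and a limma adjusted p of 0.086. The call depended on the scale, on 1 array, on the filter and on the variance model. With centred arrays the ratio was 1.34 (95% interval 0.95 to 1.73, adjusted p = 0.00706), and without control array 1 it was 1.36 (adjusted p = 0.0136). On the authors' scale with all arrays, it passed among detected probes only (adjusted p = 0.0128) and in eBayes with trend and robust (0.0209). All 12 alternatives gave a positive ratio, from 0.64 to 1.73, and 6 of them passed.

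**Figure D1:**
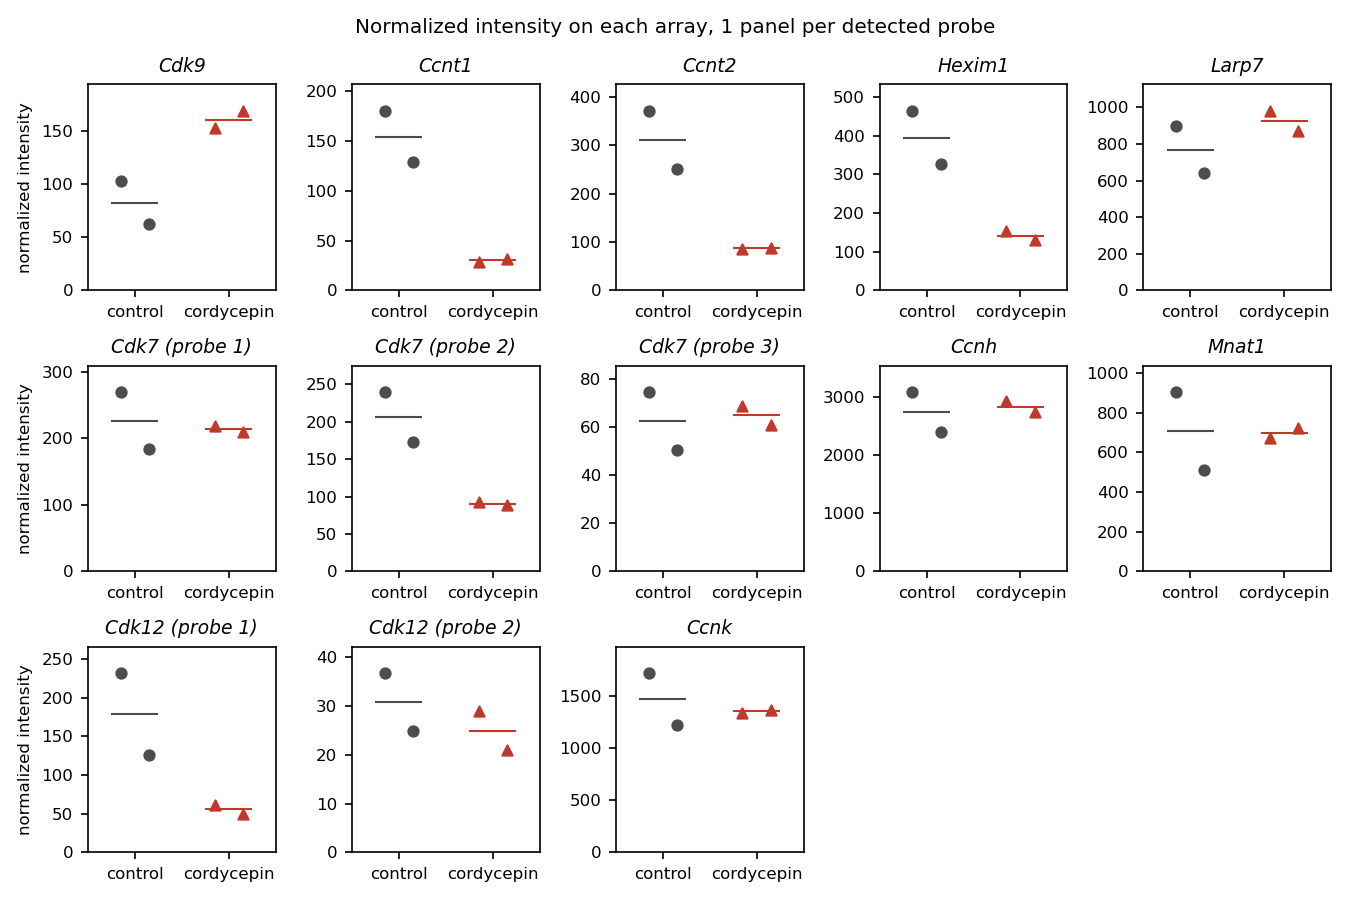
Normalized intensity (linear axis from 0, arbitrary units of the authors' scaling) on each array for the 13 detected probes of the members; points are arrays and the line is the group mean of 2 arrays. Ccnt1, Ccnt2, Hexim1 and the first Cdk12 probe lie lower in both cordycepin arrays, Cdk9 lies higher in both, and only 1 of the 3 Cdk7 probes separates the groups.

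Among the regulators of the 7SK particle, the inhibitor of P-TEFb fell and the RNA-binding protein did not. HEXIM1, encoded by a gene of 3401 bases at chr11:103116325-103119725, binds 7SK RNA and then shuts off CDK9. The Hexim1 probe read 463 and 327 in control cells against 152 and 131 after cordycepin. Group values were 395 ± 96.0 and 142 ± 15.1 (SD, n = 2), without overlap. The log2 ratio was -1.46 (95% interval -2.26 to -0.66, limma adjusted p = 0.0035), and -1.12 after centring (adjusted p = 0.00669). This call was lost without cordycepin array 1 (adjusted p = 0.114) or array 2 (0.247), with every value kept and those below 1 raised to 1 (0.0632), and by the methods' t-test (0.341).

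LARP7 holds on to the 3' end of 7SK RNA and keeps it stable. Larp7 (chr3:127536714-127553349) read 895 and 640 in control cells and 978 and 869 in treated cells. Of the treated arrays, 1 lay between the control arrays and the other above both. The means were 768 ± 180 and 923 ± 76.9 (SD, n = 2). The treated mean lay above both control arrays, but the means differed by less than the control SD. The log2 ratio of 0.28 (95% interval -0.51 to 1.08) did not pass (adjusted p = 0.884 by limma). With centred arrays it was 0.62 (95% interval 0.33 to 0.91) and passed (adjusted p = 0.0203), so its call depended on the scale.

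The 3 subunits of the CDK-activating kinase gave ratios near 0 on their brightest probes. CDK7 is the catalytic subunit, and its gene (chr13:100697024-100730942) had 3 probes that disagreed. Probe 1 read 269 and 184 in control cells and 219 and 209 in cordycepin cells, so the treated arrays fell between the controls (log2 ratio -0.06, 95% interval -0.85 to 0.74, adjusted p = 0.995). Probe 2 read 239 and 173 against 92.2 and 88.2, a 2.26-fold lower signal with no overlap (log2 ratio -1.17, adjusted p = 0.0301 by limma, and -0.84 with centring, adjusted p = 0.00716). Probe 3 read 74.4 and 50.6 against 68.9 and 60.9, again within the controls (log2 ratio 0.08, adjusted p = 0.995). With centring, probe 1 gave 0.28 and probe 3 gave 0.42, and neither passed (limma adjusted p = 0.0848 and 0.0533). After quantile normalization both passed upward, at 0.77 and 0.70 (limma adjusted p = 0.00622 and 0.0153). All 3 probes carry the same RefSeq transcript on the array's annotation, and which part of it each one reads was not analysed here. With the 3 probes averaged, the log2 ratio of Cdk7 was -0.38 (adjusted p = 0.737). Leaving out cordycepin array 1 or array 2 ended the call of probe 2 (log2 ratio -1.21 and -1.14). So did raising values below 1 to 1 (limma adjusted p = 0.0867) and the methods' t-test (0.355).

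Cyclin H, which activates CDK7, was read at 3072 and 2390 in control cells and 2923 and 2730 in treated cells. Its groups overlapped (Ccnh, chr13:85189377-85213731, log2 ratio 0.06, 95% interval -0.74 to 0.86, limma adjusted p = 0.995). Centring raised the ratio to 0.40 (95% interval 0.12 to 0.67) and its adjusted p became 0.0443, just inside the threshold. Mnat1 encodes MAT1, the assembly factor that joins CDK7 to cyclin H, and spans 161804 bases (chr12:73112185-73273988), the longest of the members. It read 903 and 512 in control cells and 673 and 726 in treated cells, with both treated values inside the control range (log2 ratio 0.04, 95% interval -0.76 to 0.84, adjusted p = 0.995). On centred arrays the ratio was 0.38 (adjusted p = 0.131). The other Mnat1 probe was detected on no array (0.909 to 2.22) and no fold is given for it.

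For the late elongation kinase, the catalytic subunit fell on 1 probe and its cyclin did not. Cdk12 (chr11:98202433-98281101) had a probe at 231 and 125 in control cells and 61.1 and 50 after cordycepin. That probe's groups did not overlap, at 178 ± 75.0 and 55.6 ± 7.86 (SD, n = 2), although the control arrays themselves differed widely. Its log2 ratio was -1.62 (95% interval -2.42 to -0.82, limma adjusted p = 0.000837) and -1.28 after centring (adjusted p = 0.018). The second Cdk12 probe, which the array assigns to another RefSeq transcript, read 36.6 and 24.9 against 28.9 and 20.9. Those groups overlapped, with a log2 ratio of -0.30 (95% interval -1.09 to 0.50, limma adjusted p = 0.878). On raw intensities, 32 and 28 against 26 and 23, they did not overlap. All 4 normalized values stood near the detection limits of their arrays, 25.2, 19.5, 24.4 and 20.9. A fall as large as that of the brighter probe could therefore not be measured above the limit. The mean of both probes gave -0.96 (adjusted p = 0.0766), so the call of the gene rested on the brighter probe. That call was also lost without cordycepin array 1 or array 2 (log2 ratio -1.77 and -1.48). Values below 1 raised to 1 (limma adjusted p = 0.104) and the methods' t-test (0.422) lost it as well.

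Cyclin K, the partner of CDK12 and of the related kinase CDK13, was read at 1718 and 1225 in control cells and 1342 and 1366 in treated cells. Both treated arrays lay between the controls. The Ccnk log2 ratio (chr12:108179308-108203359) was -0.10 (95% interval -0.90 to 0.70, limma adjusted p = 0.995), or 0.24 with centring (adjusted p = 0.101).

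**Figure D2:**
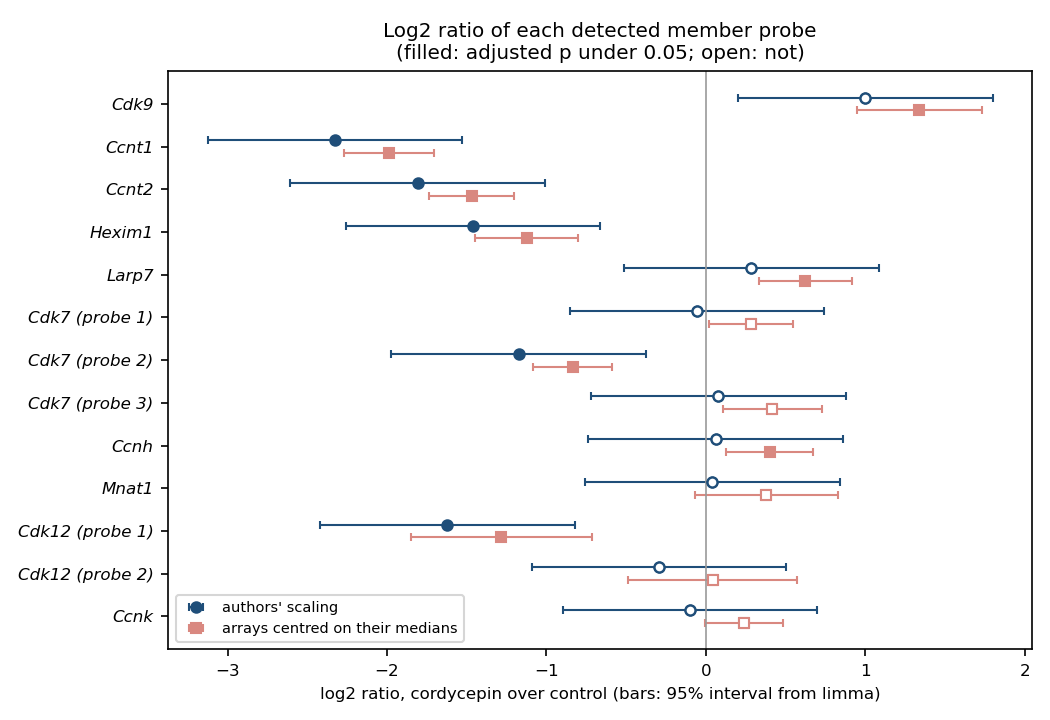
Log2 ratio of cordycepin over control (horizontal axis) for each detected probe, with the 95% interval from limma, on the authors' scale (circles) and with arrays centred on their medians (squares); filled symbols have an adjusted p under 0.05. Ccnt1 is lowest at -2.33, Cdk9 is highest at 1.0, and centring moves every ratio upward by the same amount.

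Across the 10 members the median log2 ratio was -0.08, against -0.13 over all genes and -0.30 over detected genes. Centred, these medians were 0.26, 0.21 and 0.03. Groups did not overlap downward for 4 members and upward for 1, while 35.5% of all genes and 49.3% of detected genes were lower without overlap. So the members as a list did not sit below the other detected genes at their middle, and their spread ran from Ccnt1 to Cdk9. On centred arrays 4 members were lower and 3 were higher (Cdk9, Larp7 and Ccnh). The shares of all genes on that scale were 19.8% and 19.9%, and those of detected genes 30% and 20%. All 10 members were detected, so both the number lower and the number higher were near the background. Without any 1 array the number higher on centred arrays was 0 to 1 and the number lower 3 to 4.

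Partner genes were also set against each other within each array, where a factor that multiplies all of the array's probes alike cancels. Array effects that vary with intensity do not cancel. The level of this difference depends on the probes and has no meaning by itself, so only its change between groups is read. The Ccnt1 minus Cdk9 difference of log2 intensities was 0.80 and 1.05 on the control arrays and -2.40 and -2.40 on the cordycepin arrays, a change of -3.33. For Ccnt2 against Cdk9 it went from 1.84 and 2.01 to -0.83 and -0.93, a change of -2.81. For Hexim1 against Cdk9 it went from 2.17 and 2.39 to 0 and -0.36, a change of -2.46. In all 3 pairs the change was many times the spread between arrays of a group, of which the largest SD was 0.26. Both regulators of the 7SK particle also parted, since Hexim1 minus Larp7 was -0.95 and -0.97 in control arrays and -2.68 and -2.73 in cordycepin arrays, a change of -1.75. Larp7 against Cdk9 changed by -0.72. In the CDK12 pair, Ccnk minus Cdk12 moved from 2.89 and 3.29 to 4.46 and 4.77, a change of 1.52. Within the CDK-activating kinase, Ccnh and Mnat1 shifted against the brightest Cdk7 probe by 0.12 and 0.09 (-0.53 and -0.13 after quantile normalization). On the authors' scale both shifts were within the SD of the control arrays (0.13 and 0.19). Against Cdk7 probe 2, a comparison added after seeing the data, Ccnh and Mnat1 shifted by 1.23 and 1.21 on that scale, and against probe 3 by -0.02 and -0.04. With 2 arrays against 2, an exact two-sided permutation test cannot go below p = 0.333, the value that 7 of the 8 pairs reached (0.381 after Benjamini-Hochberg adjustment over 8 pairs), and Mnat1 against Cdk7 gave 0.667.

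**Figure D3:**
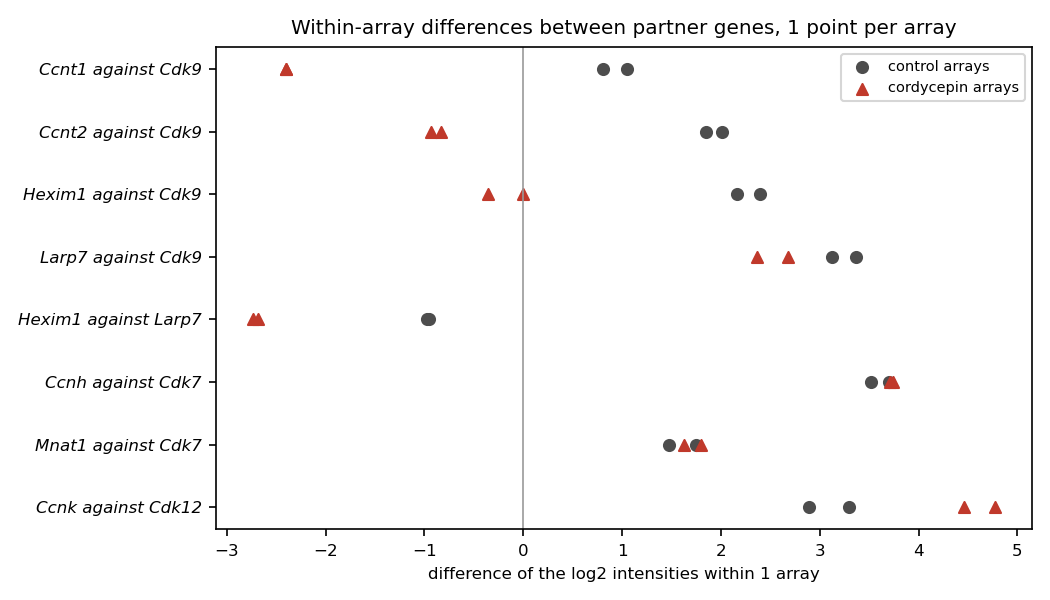
Difference of log2 intensities between partner genes within each array (horizontal axis), with circles for control arrays and triangles for cordycepin arrays. Ccnt1, Ccnt2 and Hexim1 shift to the left against Cdk9, by -3.33, -2.81 and -2.46, while Ccnh and Mnat1 shift by 0.12 and 0.09 against the brightest Cdk7 probe.

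The wider elongation machinery was described from 9 lists of 66 genes drawn up by role, of which 65 were on the array (Cdk4 was not). Of the 65, 21 were called lower and 0 higher (32.3% lower), against 14.6% of all genes and 22.1% of detected genes lower, the shares to set beside each list's count below. Of the 21, 19 were detected on both of a group's arrays. Without adjustment, limma put 26 lower and 0 higher. The methods' t-test called 0 after adjustment and 20 lower before it. Without control array 2 more related genes were called lower and without either cordycepin array fewer, and all genes moved the same way. Without control array 2 the median log2 ratio was -0.72 for related genes and -0.40 for all genes. On centred arrays 24 related genes were lower and 6 higher. The shares on that scale were 19.8% and 19.9% of all genes, and 30% and 20% of detected genes. Those are the shares to set beside each list's centred counts below. With all arrays the median log2 ratio of the related genes was -0.45, or -0.11 centred.

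In the list of the 7SK particle and of the bromodomain proteins that recruit P-TEFb to chromatin, 5 of 6 genes were lower (median log2 ratio -1.66), and all 5 were also lower on centred arrays. Hexim2, a second inhibitor of the same type, read 61.8 and 31.1 in control cells and 4.44 and 3.64 in treated cells, where it was not detected. Its signal was at least 1.94-fold lower, a lower bound taken at the detection limit of the treated arrays. The limma fit used the undetected values as measured (log2 ratio -3.45, adjusted p = 3.03e-15), so that p is not a test of the bound, and the same holds for Mllt3, Cdk13 and Ctdp1 below. Mepce, the enzyme that caps 7SK RNA, read 182 and 128 against 22.2 and 20.9 and was detected on 1 of the 2 treated arrays, whose dimmest detected probes read 24.4 and 20.9, so its ratio rests on values at the limit (log2 ratio -2.82, adjusted p = 1.96e-10). Both proteins act beside HEXIM1 and LARP7 in the particle. Brd2, a bromodomain reader of acetylated histones, read 7688 and 5499 against 1659 and 1579 (log2 ratio -2.01, adjusted p = 1.56e-05), and Brd3 had a log2 ratio of -1.32 (adjusted p = 0.0112). The probe for 7SK RNA itself, Rn7sk, read 27.5 and 18.6 against 20.0 and 23.6, was detected on 1 array of each group, and did not pass (log2 ratio -0.06, adjusted p = 0.995). 7SK is not polyadenylated, so an oligo-dT primed label is a poor measure of it.

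In the super elongation complex, which carries P-TEFb to active genes, 4 of 10 genes were lower and 6 did not pass (median log2 ratio -0.75). Its scaffold Aff1 read 1014 and 707 in control cells and 184 and 157 in treated cells, without overlap (log2 ratio -2.31, limma adjusted p = 3.38e-07). Ell, an elongation factor of the complex, had a log2 ratio of -1.35 (adjusted p = 0.0085). Mllt3, a chromatin reader of the complex, was detected in control cells only and was at least 1.23-fold lower (log2 ratio of the measured values -1.47, adjusted p = 0.00323). The fourth counted, Ell2, was detected on no array and is given no fold, which leaves 3 detected genes lower. Aff4, the other main scaffold, read 63.0 and 41.7 against 37.8 and 36.4 (log2 ratio -0.47, limma adjusted p = 0.652). On centred arrays 5 of the 10 genes were lower, with the undetected Ell2 among them, and 1 was higher. The higher one, Eaf2, was detected on 1 cordycepin array only.

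Of the 8 pausing factors, the NELF and DSIF subunits and their partners on which CDK9 acts, limma called 0 in either direction (unadjusted, 1 lower and 0 higher by limma and by the methods' t-test alike). Their log2 ratios ran from -0.96 for Supt6 to 0.53 for Supt4a, and the 8 genes were detected throughout. Centring gave 1 lower (Supt6) and 2 higher (Nelfe and Supt4a, at 0.57 and 0.87).

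Of the 12 genes of the PAF1 complex and elongation cofactors, 3 were lower and 9 did not pass (median log2 ratio -0.40). Setd2, the histone methyltransferase that travels with elongating polymerase, read 1089 and 714 against 270 and 258 (log2 ratio -1.74, limma adjusted p = 0.00027). Ctr9, a PAF1 complex scaffold, and Rtf1, its partner in histone modification, had log2 ratios of -1.38 and -1.10 (adjusted p = 0.0069 and 0.0478). In the TFIIH core, which holds the CDK7 trimer, 1 of 7 was lower. It was Ercc2, the helicase that bridges the core to the kinase, at 158 and 95.9 against 37.8 and 34.6 (log2 ratio -1.77, limma adjusted p = 0.000203). On centred arrays the PAF1 list had 3 lower and 1 higher. The TFIIH core then had 1 lower and 2 higher (median log2 ratio 0.29), and Gtf2h3, 1 of those higher, was detected on no array.

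Of 9 genes listed as other transcription kinases and cyclins, 4 were lower (median log2 ratio -0.87). They include Cdk20, whose role in transcription was not examined here. Cdk13, the closest relative of Cdk12 and also a partner of cyclin K, read 93.9 and 50.6 in control cells and 18.9 and 16.4 in treated cells, where it was not detected, a signal at least 3.05-fold lower (log2 ratio of the measured values -1.97, limma adjusted p = 2.34e-05). Cdk8, the Mediator kinase, and Ccnl1, a cyclin of the CDK11 kinases, had log2 ratios of -1.69 and -1.96 (adjusted p = 0.00044 and 2.52e-05). Ccnl2 and Cdk11b, of the same list, did not pass (log2 ratio -0.28 and -0.30, limma adjusted p = 0.898 and 0.878). Among phosphatases that reverse the kinases' work on the polymerase tail, 3 of 6 were lower. Ctdp1, the main such enzyme, read 164 and 112 against 14.4 and 15.5 and was not detected after treatment, at least 5.99-fold lower (log2 ratio of the measured values -3.18, adjusted p = 4.55e-13). Ctdspl and Ctdsp2, small phosphatases of the same family, had log2 ratios of -2.64 and -1.35 (limma adjusted p = 3.44e-09 and 0.00857). On centred arrays 5 of the kinase and cyclin list and 4 of the phosphatases were lower, and 0 were higher.

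The last lists hold genes that act downstream of CDK7 and CDK12. Of the cell cycle kinases activated by the CDK7 complex, 0 of 3 on the array were called by limma (and 0 before adjustment by limma or the methods' t-test), with a median log2 ratio of -0.22. Of these, Cdk6 was detected on no array and Cdk1 stood near the limit (26.4 to 38.9), so only 2 of the 3 were detected. Of 4 DNA repair genes that depend on CDK12 in human cells, 1 was lower on the authors' scale and 0 on centred arrays. That gene, named here after its values were seen, was Brca1, detected on 1 control array only, while Atr, Fanci and Fancd2 had ratios of -0.38, -0.32 and -0.68 that did not pass.

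**Figure D4:**
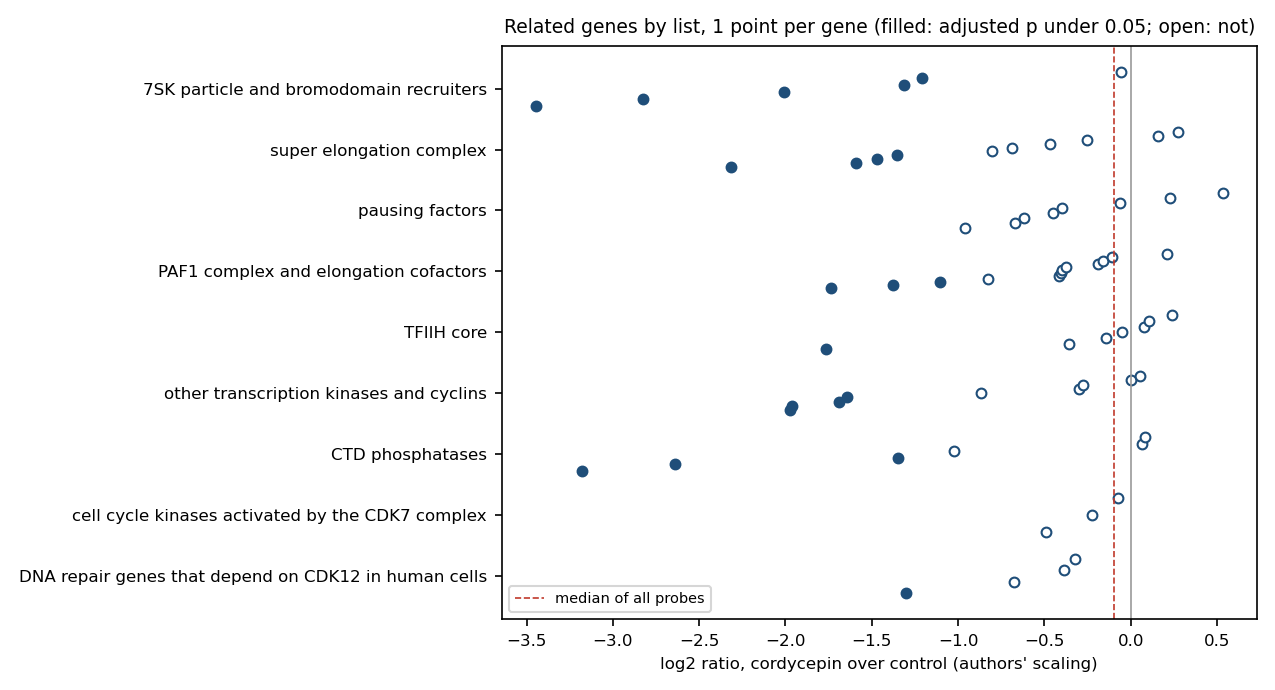
Log2 ratio of cordycepin over control on the authors' scale (horizontal axis) for the 65 related genes, 1 point per gene and 1 row per list, with filled points at an adjusted p under 0.05 and a dashed line at the median of all probes, -0.10. The filled points all lie to the left, the 7SK and bromodomain list has 5 of 6 filled, and the pausing factors have 0 of 8.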

How the data were processed

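Total RNA of MA-10 cells was hybridised to 4 Mouse OneArray one-colour arrays, 2 per group. The authors deposited raw intensities, normalized intensities (the raw intensity times 1 constant per array, 0.888 to 1.14, by a method not given in the sources used here), a detection p-value per probe and array, and a score that flags spots. The log2 ratio and p-value columns of the authors' own comparison were not used. A probe was taken as detected at a detection p under 0.05, which 12193 to 13415 probes met. Arrays give no counts, and their number limits the precision.

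The log2 of the normalized intensity was tested with limma 3.58.1 under R 4.3.3, using lmFit and eBayes with default settings and Benjamini-Hochberg adjustment over 24319 probes above 0 on all arrays. The other 2104 probes were left out. The fit was tested on simulated data with less noise than these arrays and no array offset. That test does not give its error rates in these data. The 3633 probes with no symbol and 237 with several named no gene. Gene positions and promoters were taken from RefSeq (GRCm38.p6) by gene ID or symbol, for 10 and 9 of 10 members. Where a group had no detection, its values were set no lower than the dimmest detected probe of the same array, and the fold is a lower bound.

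The members and lists were chosen with earlier results of these data known. All member probes are given. Per list, up to 3 called genes with the largest log2 ratio in size and with detection throughout 1 group or both were named, plus any called higher. Other genes named for contrast were chosen after their values were seen. The values of 1 related gene are not reported here. Alternatives were array centring, quantile normalization, raw intensities, centring on ribosomal protein probes, other filters, eBayes with trend and robust, the methods' t-test, the mean of a gene's probes, and leaving out each array. Leaving out arrays on centred values was chosen after seeing the data.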

Additional observations from a re-analysis of the deposited data

How the results depend on the processing

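No paired analysis was possible because the groups share no replicate number in the labels. The limits are 2 arrays per group, a standard error pooled over all probes, and a brighter control array 1. The Ccnt1 values after cordycepin and all 4 values of the second Cdk12 probe lay near the detection limit.

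Members lower numbered 4. The number was 2 with values below 1 raised to 1, 0 by the methods' t-test, 3 with a gene's probes averaged, and 2 to 4 without each array in turn. Members higher numbered 0. The number was 3 centred, 3 with quantile normalization, and 1 each with ribosomal centring, detected probes only and eBayes with trend and robust. It was 0 to 1 without each array in turn, and on centred arrays also 0 to 1 without each array. Related genes lower numbered 21. The number was 41 with ribosomal centring, 11 with values below 1 raised to 1, 0 by the t-test and 8 to 34 without each array. Related genes higher numbered 0, with 6 centred, 14 quantile-normalized and 0 to 1 without each array. Of all probes, 8017 were lower with ribosomal centring, 1798 with values raised, 0 by the t-test and 1548 to 6569 without each array. Probes higher numbered 4974 centred, 5253 quantile-normalized, 446 with ribosomal centring, 71 with values raised, 153 among detected probes, 0 by the t-test and 77 to 2183 without each array.

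Directions changed only for ratios near 0. Cdk7 probe 1 was 0.28 centred, 0.77 quantile-normalized (adjusted p = 0.00622) and -0.33 to 0.22 without each array. Cdk7 probe 3 was -0.13 with ribosomal centring and -0.20 to 0.36 without each array. With ribosomal centring Ccnh was -0.15 and Mnat1 -0.17, and without each array Ccnh was -0.12 to 0.24 and Mnat1 -0.37 to 0.45. Cdk12 probe 2 was 0.042 centred and 0.031 quantile-normalized. Ccnk was 0.24 centred, 0.27 quantile-normalized and -0.34 to 0.14 without each array. Within arrays, Ccnh against Cdk7 was -0.53 and Mnat1 against Cdk7 -0.13 after quantile normalization, and the latter was -0.039 to 0.23 without each array. The cause of these changes was not tested.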

Other observations

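Over the 4 arrays, the genes whose profiles lay closest to a member were found among 12498 detected single-symbol probes, by the Euclidean distance between log2 values after each probe's own mean was subtracted. For Ccnt1 they were Ppil4 (distance 0.0123), Ino80 (0.0308) and Elf1 (0.0463). For Ccnt2 they were Ncoa3 (0.0348), Rassf2 (0.0415) and Wdr47 (0.0419). For Hexim1 they were Ugcg (0.0125), Ahrr (0.0139) and Lin54 (0.0248), and for Cdk12 Uhrf2 (0.0282), Glyctk (0.0789) and Terf2 (0.0809). The profile of Cdk9 had more distant neighbours, Hmga2 (0.102), Rpl27 (0.117) and Mum1 (0.142). With 4 arrays many probes have alike profiles, and no relation between the genes is read from these distances.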
